A study of Mus musculus with 12 samples.

Results

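Hematopoietic stem cells (HSCs) are the rare bone marrow cells that renew themselves and produce all blood lineages, and they are isolated by antibodies against proteins on their surface. The transcripts of 6 such surface antigens are described here, chosen by gene name: Slamf1, Cd48, Flt3, Ly6a, Cd34 and Procr, which are 6 of the 14143 genes measured. RNA-seq was run on 12 libraries of sorted cells from female C57BL6J mice, 3 libraries in each of 4 groups: old My-HSCs, young My-HSCs, old Ly-HSCs and young Ly-HSCs. My-HSCs are the myeloid-biased and Ly-HSCs the lymphoid-biased fraction. Old mice, supplied by the National Institute on Aging, were 18 months old, and young mice were 8 to 10 weeks old by the sample labels and 8 to 12 weeks by the protocol, from the Jackson Laboratory or a colony at UCLA. Age and the source of the mice therefore cannot be told apart. The labels name no transgene or treatment. Per the series' design text, the cells of each age came from 3 independent groups of mice, so p-values measure the spread between such groups, and a My-HSC and a Ly-HSC library may share mice.

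Every library came from cells that were negative for a lineage cocktail and positive for Sca-1 (the product of Ly6a) and c-kit. They were negative for CD48 (Cd48) and CD135 (Flt3), and CD150 (Slamf1) split them into My-HSCs with high and Ly-HSCs with low staining. Kit was not analysed here. CD34 and CD201, the product of Procr, are absent from the labelled sort, so of the 6 genes only Slamf1, Cd48, Flt3 and Ly6a encode antigens the gate used. A difference in Slamf1 RNA between My-HSCs and Ly-HSCs therefore checks the gate at the level of RNA and is no independent finding. In RNA from pooled cells, a lower value can mean fewer cells with a transcript or less of it in each cell, and these cannot be told apart.

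CD150 and CD48 are receptors of the SLAM (signaling lymphocyte activation molecule) family. Mouse HSCs are classically CD150-positive and CD48-negative, and CD48 appears on their progeny. CD135 is the receptor tyrosine kinase for FLT3 ligand and marks multipotent progenitors that are moving toward lymphoid fates. Sca-1 is a lipid-anchored protein of the Ly6 family, CD34 is a sialomucin that is low on adult mouse long-term HSCs and appears as they differentiate, and CD201 is the endothelial protein C receptor, a marker enriched on HSCs.

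On GRCm38 with the GENCODE M21 annotation, 3 of the 6 genes lie on chromosome 1. Slamf1 (ENSMUSG00000015316.11, chr1:171767127-171801184, plus strand) and Cd48 (ENSMUSG00000015355.13, chr1:171682009-171705258, plus strand) stand 61.9 kb apart within the cluster of SLAM genes that also holds Cd244a, Ly9, Slamf7, Cd84 and Slamf6. Cd34 (ENSMUSG00000016494.9) is at chr1:194938819-194961279 on the plus strand. Flt3 (ENSMUSG00000042817.15) is at chr5:147330741-147400489 on the minus strand and Ly6a (ENSMUSG00000075602.10) at chr15:74994877-74998031 on the minus strand. Procr (ENSMUSG00000027611.12) is at chr2:155751117-155755471 on the plus strand.

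RefSeq promoters (GRCm38.p6), each from 250 bases before to 50 bases after the annotated start, were at hand for 5 of the 6 genes, all but Ly6a. Those of Slamf1, Cd34 and Flt3 are shown because these 3 of the 6 genes had the largest log2 fold changes between My-HSCs and Ly-HSCs, Slamf1 upward and the other two downward. They are chr1:171766882-171767181 (plus strand), chr1:194938571-194938870 (plus strand) and chr5:147400440-147400739 (minus strand), written 5′ to 3′ on the gene's strand. Capitals mark every match, on either strand, to GATAA (the core bound by GATA factors), AGGAA (ETS factors; TTCCT on the other strand), TGTGGT (RUNX factors) and CAGCTG (an E-box).
Slamf1: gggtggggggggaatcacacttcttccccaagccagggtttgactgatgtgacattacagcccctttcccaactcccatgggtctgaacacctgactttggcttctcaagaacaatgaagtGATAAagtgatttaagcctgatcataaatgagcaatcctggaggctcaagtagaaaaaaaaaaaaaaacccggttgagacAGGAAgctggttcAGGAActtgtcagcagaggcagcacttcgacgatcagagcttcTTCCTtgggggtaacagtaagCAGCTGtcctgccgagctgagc
Cd34: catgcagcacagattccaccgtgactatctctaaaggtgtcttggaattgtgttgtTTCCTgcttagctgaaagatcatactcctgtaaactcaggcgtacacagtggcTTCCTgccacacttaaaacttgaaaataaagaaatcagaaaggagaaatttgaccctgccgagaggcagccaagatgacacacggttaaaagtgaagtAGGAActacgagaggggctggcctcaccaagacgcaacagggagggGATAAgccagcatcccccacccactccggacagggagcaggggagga
Flt3: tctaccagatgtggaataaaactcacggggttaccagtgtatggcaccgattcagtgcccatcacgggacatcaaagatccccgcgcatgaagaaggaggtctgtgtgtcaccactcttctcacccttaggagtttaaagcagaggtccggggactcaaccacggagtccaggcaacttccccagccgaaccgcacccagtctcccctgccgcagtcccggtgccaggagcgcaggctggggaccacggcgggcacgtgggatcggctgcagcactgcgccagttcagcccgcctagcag
The Slamf1 window held 1 GATAA, 3 AGGAA and 1 CAGCTG. The Cd34 window held 1 GATAA and 3 AGGAA, and the Flt3 window held none of these letters. The Cd48 window held 2 AGGAA and 1 TGTGGT, and that of Procr 1 AGGAA and 1 CAGCTG. Of 32841 promoters of the same length, 25.4% held GATAA, 66.7% AGGAA, 16.8% TGTGGT and 16.3% CAGCTG. The motifs do not overlap each other within these windows, and a match describes letters and not a bound site. Slamf1 and Cd34 held the same number of GATAA and AGGAA matches, and a link of such matches to RNA levels was not tested.

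Values are FPKM (fragments scaled to the length of the transcript and to the depth of the library) as deposited, a unit that allows levels of different genes to be compared per length. Averaged over the 12 libraries, Procr had the highest level of the 6 at 58.4 FPKM, above 95.4% of all measured genes, followed by Cd34 at 28.5 and Ly6a at 19.9 FPKM. Slamf1 averaged 15.6 and Flt3 7.56 FPKM. Cd48, whose protein the gate excluded, was lowest, between 0 and 10.9 FPKM. Depth was not stated, and estimates from the smallest values in each library were lowest in young Ly-HSC library 1, at 6420000 fragments, and reached 19500000 fragments elsewhere. Genes listed at 0 made up 12.1% to 34.1% of a library, the most in young Ly-HSC library 1. Of 9 further HSC genes listed as markers, 7 were measured and all 7 passed 1 FPKM in at least 3 libraries. Their summed level was 410 to 446 FPKM in old My-HSCs, 440 to 516 FPKM in young My-HSCs, 260 to 346 FPKM in old Ly-HSCs and 374 to 470 FPKM in young Ly-HSCs.

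**Figure D1:**
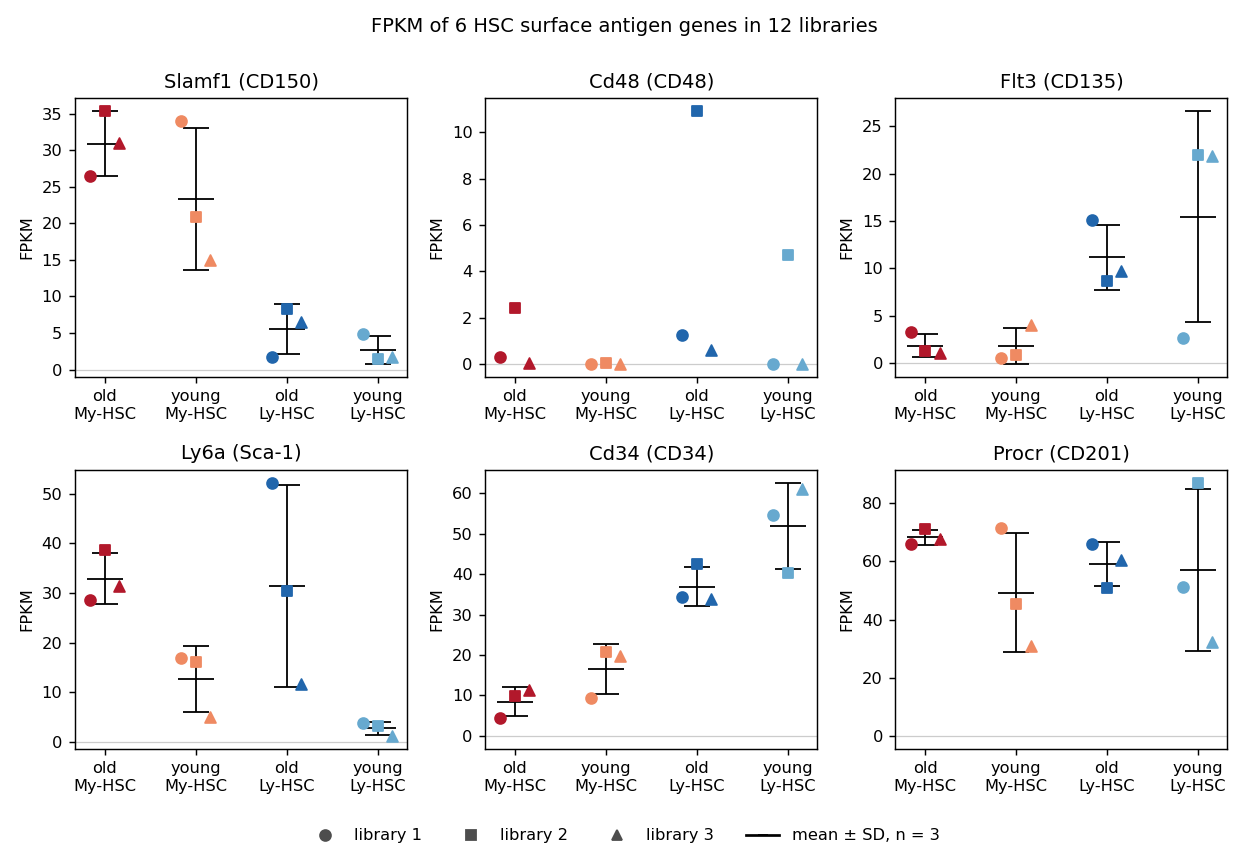
FPKM (vertical axes, linear, each panel with its own scale) of the 6 genes in the 12 libraries, by group (horizontal axes). Symbols are libraries 1, 2 and 3 of a group, and bars are the mean ± SD of 3. Slamf1 is higher in all 6 My-HSC libraries (15.0 to 35.3 FPKM) than in any Ly-HSC library, and Cd34 is lower in all 6. Cd48, listed at 0 in 4 libraries, has no bars, and a bar of Flt3 that reaches below 0 is an SD larger than the mean.

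Folds and tests below are from limma on log2(FPKM + 1) in 1 model over the 12 libraries and 10900 genes that reached 1 FPKM in at least 3 libraries, and all 6 genes passed this filter. An error after ± is the SD over 3 libraries for FPKM and limma's standard error for a log2 fold change. A gene was called at an adjusted p (Benjamini-Hochberg over the 10900 genes, two-sided) under 0.05. The added 1 makes these folds smaller than the ratio of the FPKM values for low genes. The model counts all 12 libraries as independent, although a My-HSC and a Ly-HSC library of an age may share mice. For any gene, errors and adjusted p between ages over both fractions may therefore be too small.

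My-HSCs and Ly-HSCs differed in Slamf1 and Cd34, in opposite directions. Averaged over both ages, Slamf1 was 6.13-fold higher and Cd34 3.65-fold lower in My-HSCs, and these were the 2 of 6 genes called, where 0.413% of all tested genes (45 of 10900) were called. Flt3 had a lower level in My-HSCs without passing the test, and Cd48, Ly6a and Procr did not pass it either. With equally numbered libraries of the same age treated as a replicate block, 17 genes were called, Slamf1 (adjusted p = 0.0362) and Cd34 (adjusted p = 0.0424) among them.

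Slamf1 was at 26.4, 35.3 and 31.0 FPKM in libraries 1, 2 and 3 of old My-HSCs and at 1.78, 8.33 and 6.47 FPKM in the old Ly-HSC libraries. In young mice it was at 34.0, 20.9 and 15.0 FPKM in My-HSCs and at 4.87, 1.39 and 1.70 FPKM in Ly-HSCs. The 6 My-HSC libraries (15.0 to 35.3 FPKM) and the 6 Ly-HSC libraries (1.39 to 8.33 FPKM) did not overlap. The log2 fold change over both ages was 2.62 ± 0.37 (limma, adjusted p = 0.00810, rank 9 of 10900 by p). Within ages it was 2.45 ± 0.52 in old mice (adjusted p = 0.202) and 2.78 ± 0.52 in young mice (adjusted p = 0.0580), neither called. The young comparison passed when 1 library was left out: old Ly-HSC library 1 (adjusted p = 0.0381), young Ly-HSC library 1 (adjusted p = 0.0161) or young Ly-HSC library 2 (adjusted p = 0.0372). It was called in 4 of 22 alternatives, with an adjusted p of up to 0.437 in the others. Slamf1 averaged 30.9 ± 4.46 FPKM in old and 23.3 ± 9.71 FPKM in young My-HSCs, and 5.53 ± 3.38 FPKM in old and 2.66 ± 1.93 FPKM in young Ly-HSCs (SD, n = 3 each). The order of the 4 groups was thus old My-HSCs, young My-HSCs, old Ly-HSCs and young Ly-HSCs, and the libraries of the 2 ages overlapped within each fraction.

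Cd34 ran the other way, although its protein was not used in the sort. It was at 4.32, 9.82 and 11.2 FPKM in the 3 libraries of old My-HSCs and at 34.3, 42.6 and 34.0 FPKM in the 3 old Ly-HSC libraries. In young mice it was at 9.34, 20.6 and 19.7 FPKM in My-HSCs and at 54.6, 40.3 and 61.2 FPKM in Ly-HSCs. Every My-HSC library (at most 20.6 FPKM) was below every Ly-HSC library (at least 34.0 FPKM). The log2 fold change over both ages was -1.87 ± 0.26 (limma, adjusted p = 0.00810, rank 8 of 10900 by p). It was -2.09 ± 0.37 in old mice (adjusted p = 0.103) and -1.65 ± 0.37 in young mice (adjusted p = 0.0847), neither called. The young comparison passed without young Ly-HSC library 2 (adjusted p = 0.0396), the only call in 22 alternatives, with an adjusted p of up to 0.606 in the others. With libraries ordered by group mean, Cd34 was highest in young Ly-HSCs (52.0 ± 10.7 FPKM), then old Ly-HSCs (37.0 ± 4.88 FPKM), young My-HSCs (16.5 ± 6.26 FPKM) and old My-HSCs (8.46 ± 3.65 FPKM; SD, n = 3 each). Libraries of the 2 ages overlapped within each fraction.

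Set side by side within a library, Cd34 exceeded Slamf1 in all 6 Ly-HSC libraries and in 1 of 6 My-HSC libraries. The ratio of Cd34 to Slamf1 in FPKM was 0.164, 0.278 and 0.363 in old My-HSC libraries and 0.275, 0.990 and 1.31 in young My-HSC libraries. In Ly-HSCs it was 19.3, 5.11 and 5.25 in old and 11.2, 29.0 and 35.9 in young libraries. Since every My-HSC library was above every Ly-HSC library in Slamf1 and below it in Cd34, the ratio had to separate the fractions. It adds no result of its own. Young My-HSC libraries 2 and 3 stood nearest to the Ly-HSCs.

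**Figure D2:**
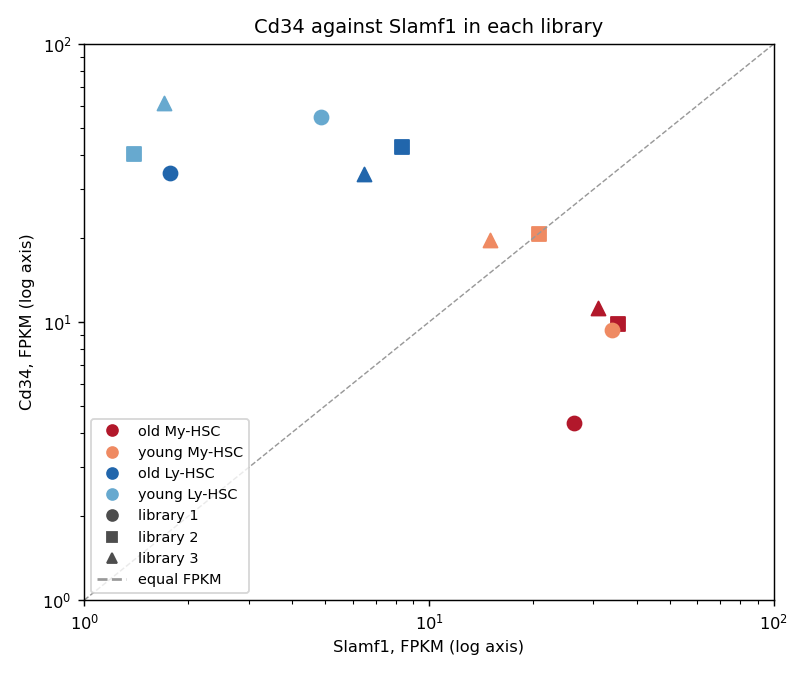
Cd34 FPKM (vertical, log axis) against Slamf1 FPKM (horizontal, log axis), 1 point per library, with the line of equal FPKM. All 6 Ly-HSC libraries lie above the line, at ratios of 5.11 to 35.9, and young My-HSC library 3, at 1.31, is the only My-HSC library above it.

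Flt3, which the gate required to be low as protein, was still measurable as RNA, and its level was lower in My-HSCs without passing the test. It was at 3.22, 1.22 and 1.02 FPKM in the 3 libraries of old My-HSCs and at 15.1, 8.69 and 9.74 FPKM in the 3 old Ly-HSC libraries, which did not overlap. In young mice it was at 0.571, 0.792 and 4.01 FPKM in My-HSCs and at 2.58, 22.0 and 21.9 FPKM in Ly-HSCs, where young Ly-HSC library 1, the shallowest of the series, was below young My-HSC library 3. The log2 fold change over both ages was -2.25 ± 0.51 (limma, adjusted p = 0.0822), so Flt3 was not called, while without young Ly-HSC library 1 the adjusted p was 0.00599. It was -2.15 ± 0.72 in old mice (adjusted p = 0.790) and -2.35 ± 0.72 in young mice (adjusted p = 0.190), and in young mice without that library the adjusted p was 0.0335. That library held an estimated 102 fragments of Flt3. Flt3 was called over both ages in 3 of 21 alternatives (adjusted p up to 0.233) and in young mice in 1 of 22 (up to 0.669). Between ages the log2 fold change was 0.14 ± 0.72 in My-HSCs (adjusted p = 0.995) and -0.06 ± 0.72 in Ly-HSCs (adjusted p = 0.982), with 95% intervals of -1.42 to 1.70 and -1.62 to 1.51.

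Cd48 was near or at 0 in most libraries and high in single ones. It was listed at 0.308, 2.44 and 0.0585 FPKM in the 3 old My-HSC libraries, at 0, 0.0596 and 0 in young My-HSC libraries, at 1.26, 10.9 and 0.594 in old Ly-HSC libraries and at 0, 4.73 and 0 in young Ly-HSC libraries. In each of the 4 groups the highest value was that of library 2. By the estimated depths, 3 fragments would give 0.130 to 0.393 FPKM (counting error only), so old My-HSC library 3, every young My-HSC library and young Ly-HSC libraries 1 and 3 were under that level. All neighbouring groups overlapped, and no comparison was called. Over both ages the log2 fold change between My-HSCs and Ly-HSCs was -0.93 ± 0.58 (limma, adjusted p = 0.599), and between old and young it was 0.85 ± 0.58 (adjusted p = 0.545).

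Within single ages no gene of the 6 was called between fractions. In old mice 0.0275% of tested genes were called (3 of 10900, with 439 at an unadjusted p under 0.05), and 3 of the 6, Slamf1, Flt3 and Cd34, had an unadjusted p under 0.05. With the replicate block within age, none was called in old mice by limma, with 462 at an unadjusted p under 0.05. In young mice 0.119% were called (13 of 10900, with 1504 at an unadjusted p under 0.05), and 4 of the 6 had an unadjusted p under 0.05: Slamf1, Flt3, Ly6a and Cd34. Libraries of the fractions did not overlap for 4 of the 6 in old mice (Slamf1, Flt3, Cd34 and Procr), against 16.7% of tested genes, and for 3 of the 6 in young mice (Slamf1, Ly6a and Cd34), against 13.4%. With 6 libraries a side, Slamf1 and Cd34 did not overlap, against 1.17% of tested genes.

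With age, Ly6a was the 1 gene of the 6 that was called, and it was higher in old cells. Over both fractions it was 4.62-fold higher (log2 fold change 2.21 ± 0.39, limma, adjusted p = 0.0177), where 0.844% of all tested genes were called. This error and adjusted p may be too small, since My-HSC and Ly-HSC libraries that may share mice were counted as independent. Within Ly-HSCs Ly6a was 7.79-fold higher in old cells (log2 fold change 2.96 ± 0.55, adjusted p = 0.0440), where 0.349% were called. Within My-HSCs it was 2.74-fold higher in old cells without being called (log2 fold change 1.45 ± 0.55, adjusted p = 0.537), where 0.211% were called, none of the 6 among them and Ly6a and Cd34 at an unadjusted p under 0.05.

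Ly6a was at 28.7, 38.6 and 31.4 FPKM in the 3 libraries of old My-HSCs and at 16.9, 16.1 and 5.06 FPKM in the 3 young My-HSC libraries. It was at 52.2, 30.4 and 11.7 FPKM in the 3 libraries of old Ly-HSCs and at 3.83, 3.15 and 1.24 FPKM in the 3 young Ly-HSC libraries. Old libraries were above young ones within each fraction. The ages did not overlap, in either direction, for 19.1% of tested genes in My-HSCs and 16.0% in Ly-HSCs. Old Ly-HSC library 3, at 11.7 FPKM, was below young My-HSC libraries 1 and 2, so all old and all young libraries together overlapped, which held for the other 5 genes as well (1.58% of tested genes did not). The change in My-HSCs and that in Ly-HSCs differed by -1.51 ± 0.78 on the log2 scale without passing the test (limma, adjusted p = 0.874). No tested gene passed it for that difference in limma, 0% of 10900, and 616 had an unadjusted p under 0.05. Young My-HSCs and young Ly-HSCs did not overlap either (log2 fold change 1.79 ± 0.55, adjusted p = 0.188). This comparison shares the young Ly-HSC libraries with the one between ages.

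The call of Ly6a in Ly-HSCs was lost in most alternative analyses, while its direction was the same in all of them. It held in 6 of 21, with a log2 fold change of 2.49 to 3.52 throughout. It was lost without old My-HSC library 1, 2 or 3 (adjusted p of 0.0745, 0.0918 and 0.0862), young My-HSC library 1 or 2 (0.0505 and 0.0696), old Ly-HSC library 1 or 2 (0.206 and 0.182) or young Ly-HSC library 3 (0.0580). Over both fractions the call held in 15 of 20 alternatives and was lost without old My-HSC library 2 or 3 (adjusted p of 0.0644 and 0.0537) or old Ly-HSC library 2 (0.0569). The sources used here do not state how reads that match several of the similar Ly6 genes were counted, and the level of Ly6a is uncertain to that extent.

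Summed levels of neutrophil markers were also higher in old than in young libraries of each fraction, beside Ly6a. Of 14 neutrophil markers 4 were measured: Mmp9, Itgam, Prtn3 and Cxcr2. S100a8, S100a9, Ngp, Camp, Ltf, Lcn2, Mmp8, Elane, Mpo and Retnlg were not. The summed level of the 4 was 109 to 315 FPKM in old and 14.5 to 42.4 FPKM in young My-HSCs, and 78.6 to 330 FPKM in old and 1.79 to 57.1 FPKM in young Ly-HSCs. None of the 4 was called over both fractions, and all 4 were higher in old cells. Itgam, an integrin of myeloid cells, was at 124.5, 23.5 and 18.0 FPKM in the 3 old My-HSC libraries, where Ly6a was lowest in library 1. It was at 160.0, 19.4 and 28.3 FPKM in the 3 old Ly-HSC libraries, where Ly6a was highest in library 1. Young libraries had Itgam at 0, 6.69 and 3.29 FPKM in My-HSCs and at 0.369, 14.2 and 32.9 FPKM in Ly-HSCs. The ages thus overlapped for Itgam in Ly-HSCs. Prtn3 was the largest part of the sum in libraries 2 and 3 of old My-HSCs (79.7 and 88.6 FPKM) and old Ly-HSCs (58.1 and 54.0 FPKM). In young libraries Prtn3 was at 29.5, 7.49 and 37.7 FPKM in My-HSCs and at 1.42, 34.4 and 24.0 FPKM in Ly-HSCs. Without both old libraries numbered 1, an alternative chosen after seeing the data, the log2 fold change of Ly6a was 2.49 in Ly-HSCs (limma, adjusted p = 0.258) and 2.02 over both fractions (adjusted p = 0.0889). Erythroid markers (9 of 14 measured) summed to 107.8, 13.8 and 21.8 FPKM in the 3 libraries of old My-HSCs and to 9.51, 34.3 and 34.8 FPKM in young My-HSCs. They summed to 141, 43.0 and 24.5 FPKM in old Ly-HSCs and to 20.9, 15.5 and 25.2 FPKM in young Ly-HSCs, so the ages overlapped in both fractions and the old libraries numbered 1 stood highest. Monocyte and macrophage markers (8 of 10 measured) reached at most 49.9 FPKM in sum, B lineage markers (8 of 10) at most 31.7 FPKM and T and NK markers (8 of 10) at most 32.5 FPKM. Also not measured were Lyz2 (monocyte and macrophage), Ighm (B lineage), the globins Hba-a1, Hba-a2, Hbb-bs and Hbb-bt (erythroid), and Pf4 and Ppbp (megakaryocyte). A sum over the measured markers is thus no level of other cells. Over both fractions, 7 of 8 tested erythroid, 5 of 5 monocyte and macrophage, 4 of 4 B lineage and 1 of 2 T and NK markers had a higher level in old cells, none called, where 62.7% of all tested genes had a higher level in old cells. Of 7 tested megakaryocyte markers 5 had a higher level in old cells, with Selp, described below, called, where 0.844% of all tested genes were called. Megakaryocyte markers (8 of 11 measured) summed to 264 to 345 FPKM in old and 213 to 262 FPKM in young My-HSCs, which did not overlap, and to 145 to 242 FPKM in old and 219 to 255 FPKM in young Ly-HSCs, which did. Endothelial markers (14 of 14) summed to 158 to 179 FPKM in old and 186 to 242 FPKM in young My-HSCs, and to 116 to 172 FPKM in old and 165 to 182 FPKM in young Ly-HSCs. The T cell genes Cd3e and Cd3g and the endothelial genes Cdh5 and Flt1 never reached 1 FPKM. Others of the same lists did. Cd3d, Cd4 and Cd8a were at 5.26, 2.86 and 2.93 FPKM in old Ly-HSC library 1, and Lck at 32.5 FPKM in young Ly-HSC library 1. Kdr and Pecam1 were at 9.91 and 23.9 FPKM in young My-HSC library 1. The part of other cells in the results for Ly6a was not tested.

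Relative to their level, the group means of Procr differed least of the 6 genes. It was at 66.0, 71.0 and 67.8 FPKM in the 3 libraries of old My-HSCs and at 71.4, 45.5 and 31.0 FPKM in the 3 young My-HSC libraries. It was at 65.8, 50.8 and 60.4 FPKM in the 3 libraries of old Ly-HSCs and at 51.2, 87.1 and 32.4 FPKM in the 3 young Ly-HSC libraries. The old libraries lay close together (68.3 ± 2.55 FPKM in My-HSCs and 59.0 ± 7.62 FPKM in Ly-HSCs) and the young ones apart (49.3 ± 20.4 FPKM in My-HSCs and 56.9 ± 27.8 FPKM in Ly-HSCs; SD, n = 3 each). Between My-HSCs and Ly-HSCs over both ages the log2 fold change was 0.022 ± 0.24 (limma, adjusted p = 0.984), with a 95% interval of -0.49 to 0.53. Old My-HSC libraries were all above old Ly-HSC libraries, the lowest of the one at 65.97 FPKM against the highest of the other at 65.81 FPKM. The age difference over both fractions was 0.35 ± 0.24 on the log2 scale (adjusted p = 0.540).

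Slamf1 and Cd34 did not pass the test between ages. Over both fractions the log2 fold change from old over young was 0.62 ± 0.37 for Slamf1 (limma, adjusted p = 0.470) and -0.69 ± 0.26 for Cd34 (adjusted p = 0.243). For Cd34 it was -0.91 ± 0.37 in My-HSCs (adjusted p = 0.578) and -0.47 ± 0.37 in Ly-HSCs (adjusted p = 0.601).

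**Figure D3:**
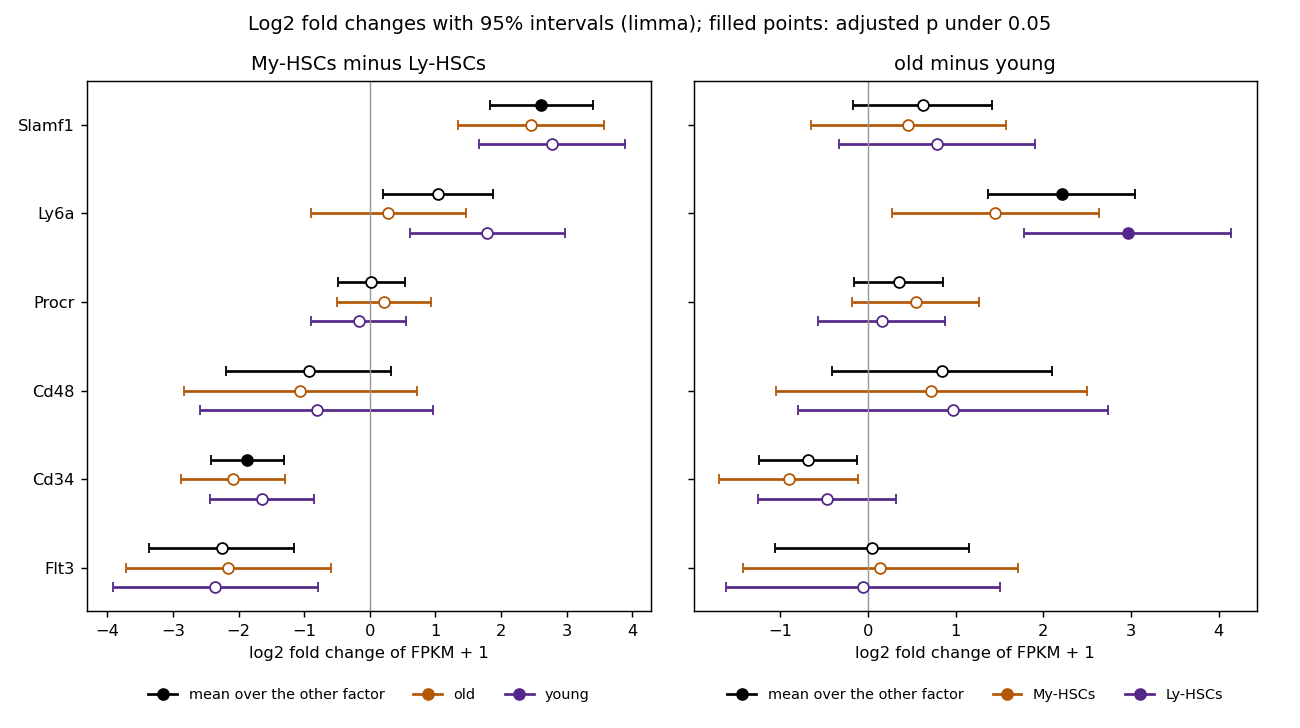
Log2 fold changes of FPKM + 1 (horizontal axes) of the 6 genes for My-HSCs minus Ly-HSCs (left) and old minus young (right), from limma. Points are estimates over both levels of the other factor and within each level, whiskers are 95% intervals, and filled points have an adjusted p under 0.05. Filled are Slamf1 (2.62) and Cd34 (-1.87) on the left and Ly6a over both fractions (2.21) and in Ly-HSCs (2.96) on the right.

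No relative or partner of the 6 genes was called between fractions in the 5 family lists. Of 12 other SLAM family members and adaptors, 5 were tested and none was called over both ages between fractions (3 higher in My-HSCs, median log2 fold change 0.21) or over both fractions between ages (3 higher in old cells, median 0.12). The medians over all tested genes were 0.084 between fractions and 0.13 between ages. Of all tested genes, 58.1% were higher in My-HSCs over both ages and 62.7% were higher in old cells over both fractions. Of 7 genes of FLT3-related receptors and ligands 4 were tested, 2 of them higher in My-HSCs (median 0.17) and 4 higher in old cells (median 0.54), none called. Flt3l, the ligand of CD135, had a log2 fold change of -0.19 ± 0.54 between fractions (limma, adjusted p = 0.932). Of 17 Ly6 superfamily genes 5 were tested, 4 of them higher in My-HSCs (median 0.24) and 4 higher in old cells (median 0.51), none called. Of 9 genes of the protein C system 6 were tested, 4 of them higher in My-HSCs (median 0.35) and 5 higher in old cells (median 0.31), none called, and F2r, a receptor for thrombin, averaged 28.5 FPKM over the 12 libraries.

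Of 6 other genes of the CD34 sialomucin family and its partners 5 were tested. Between fractions 2 were higher in My-HSCs (median -0.12) and none was called. Between ages 2 were higher in old cells (median -0.13), and Selp, which encodes the adhesion receptor P-selectin, was called with a log2 fold change of 3.26 ± 0.43 (limma, adjusted p = 0.00313, called in 20 of 20 alternatives). Over all tested genes, 0.844% were called between ages. Selp was at 86.8, 106.7 and 110.9 FPKM in the 3 libraries of old My-HSCs and at 2.47, 5.38 and 12.5 FPKM in the 3 young My-HSC libraries. It was at 25.5, 39.7 and 45.5 FPKM in the 3 libraries of old Ly-HSCs and at 1.08, 7.62 and 11.8 FPKM in the 3 young Ly-HSC libraries, and the ages did not overlap in either fraction.

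Among 34 other HSC surface antigens, 31 were tested. Between fractions 22 were higher in My-HSCs (median 0.21), with Clca3a1, Cd38 and Neo1 called higher and Cd27 called lower. Between ages 22 were higher in old cells (median 0.67), with Clca3a1 and Itgb3 called higher. The shares over all tested genes were 58.1% higher in My-HSCs with 0.413% called, and 62.7% higher in old cells with 0.844% called. Clca3a1, a chloride channel accessory protein, was at 144.1, 143.5 and 163.7 FPKM in the 3 libraries of old My-HSCs and at 27.9, 43.4 and 34.0 FPKM in the 3 old Ly-HSC libraries. In young mice it was at 44.8, 38.3 and 26.5 FPKM in My-HSCs and at 9.86, 1.28 and 9.88 FPKM in Ly-HSCs. Clca3a1 thus differed both between fractions (2.30 ± 0.34 on the log2 scale, limma, adjusted p = 0.0119) and between ages (2.25 ± 0.34, adjusted p = 0.00754). Cd38, an ectoenzyme that is on mouse HSCs, had a log2 fold change of 2.41 ± 0.44 between fractions (adjusted p = 0.0316), and Neo1, the netrin receptor neogenin, 1.98 ± 0.33 (adjusted p = 0.0210). Itgb3, the integrin beta 3 chain, had one of 1.67 ± 0.34 between ages (adjusted p = 0.0384). These 3 calls held in 7 of 21, 11 of 21 and 7 of 20 alternatives, while those of Clca3a1 held in 19 of 21 and 19 of 20. With the replicate block within age, the adjusted p was 0.0698 for Cd38 and 0.0771 for Neo1, and with the block on all equal numbers it was 0.0737 for Itgb3. The call of Cd38 was lost without any 1 of 8 libraries: old My-HSC 2 or 3, young My-HSC 1 or 3, old Ly-HSC 1, 2 or 3 and young Ly-HSC 3 (adjusted p of 0.0567 to 0.118). That of Neo1 was lost without any 1 of 6: old My-HSC 2 or 3, young My-HSC 3 and old Ly-HSC 1, 2 or 3 (adjusted p of 0.0535 to 0.0995). That of Itgb3 was lost without any 1 of 8: old My-HSC 1, 2 or 3, young My-HSC 1 or 2 and old Ly-HSC 1, 2 or 3 (adjusted p of 0.0602 to 0.128).

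Most tested early progenitor genes had a lower level in My-HSCs, as Cd34 did. Of 12 such genes besides Flt3, Cd48 and Cd34, 6 were tested, and 5 of these were lower in My-HSCs (median -0.77), with 1 called, Cd27. Over all tested genes, 58.1% were higher in My-HSCs and 0.413% were called between fractions. Between ages 3 were higher in old cells (median 0.19) and none was called. Cd27, a receptor of the tumor necrosis factor receptor family that lymphoid progenitors carry, was at 49.2, 69.6 and 74.8 FPKM in the 3 libraries of old My-HSCs and at 130.5, 108.7 and 147.1 FPKM in the 3 old Ly-HSC libraries. In young mice it was at 55.4, 59.3 and 98.4 FPKM in My-HSCs and at 169.2, 134.7 and 189.1 FPKM in Ly-HSCs, so that all 6 My-HSC libraries were below all 6 Ly-HSC libraries. The log2 fold change was -1.12 ± 0.17 (limma, adjusted p = 0.0140), and without old Ly-HSC library 1 or 3 the adjusted p was 0.0510 or 0.0519. The call of Cd27 held in 17 of 21 alternatives. It was also lost without the 4 libraries numbered 1 (adjusted p = 0.126) and without the 2 old ones (adjusted p = 0.103). Cebpa, a myeloid transcription factor, had one of -1.74 ± 0.49 (adjusted p = 0.170) and was not called. Of 12 further antigens of the lineage cocktail 1 was tested, Klrb1c (NK1.1), with a log2 fold change of 2.30 ± 0.54 between fractions (adjusted p = 0.0979) and 1.20 ± 0.54 between ages (adjusted p = 0.328).

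**Figure D4:**
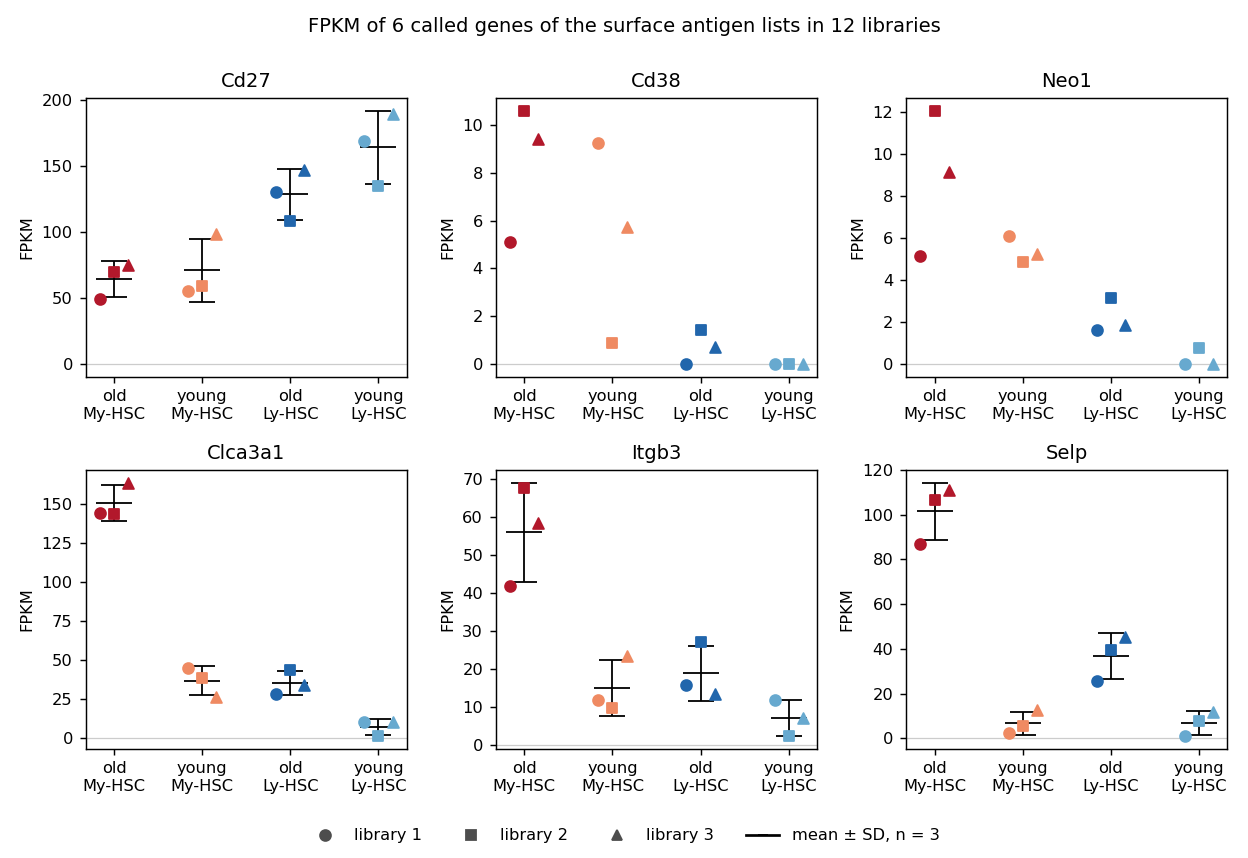
FPKM (vertical axes, linear, each panel with its own scale) of the 6 called genes of the antigen and CD34 family lists in the 12 libraries, by group (horizontal axes), with symbols for libraries 1, 2 and 3 and bars for the mean ± SD of 3, left out for Cd38 and Neo1, which are listed at 0 in some libraries. Cd27 is lower in every My-HSC library (49.2 to 98.4 FPKM) than in any Ly-HSC library. Selp is higher in every old than in any young library of both fractions.

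Of the 7 HSC marker genes other than the 6, 6 were higher in My-HSCs (median log2 fold change 0.93), with Fgd5 and Hoxb5 called. Of all tested genes, 58.1% were higher in My-HSCs and 0.413% were called between fractions. Between ages 3 of the 7 were higher in old cells (median -0.25), none called. Fgd5, a guanine nucleotide exchange factor used as an HSC reporter, had a log2 fold change of 0.97 ± 0.12 between fractions (limma, adjusted p = 0.00476, called in 21 of 21 alternatives). Hoxb5, a homeobox factor used likewise, had one of 2.40 ± 0.46 (adjusted p = 0.0437, called in 4 of 21). Its call was lost with the replicate block within age (adjusted p = 0.0895) and without any 1 of 10 libraries, all but young Ly-HSC 1 and 2 (adjusted p of 0.0571 to 0.159). Of 8 measured megakaryocyte markers, 7 were tested and 6 were higher in My-HSCs (median 0.68), and Vwf, von Willebrand factor, was called at 3.12 ± 0.38 (adjusted p = 0.00476, called in 21 of 21 alternatives).

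The genes most like each of the 6 over the 12 libraries were named by the highest Pearson correlation of log2(FPKM + 1) among 10899 genes. The points share libraries, depth and the 4 groups, so these values are a description. Unc13b (r = 0.931) and Mon2 (r = 0.928) were among the genes most like Slamf1, and Cmtm7 (r = 0.969), Spns2 (r = 0.927) and Cd27 (r = 0.916) were most like Cd34. Cmtm7 averaged 34.9 FPKM in old My-HSCs, 45.0 FPKM in young My-HSCs, 67.9 FPKM in old Ly-HSCs and 99.2 FPKM in young Ly-HSCs, the same order as Cd34. Bdp1 (r = 0.929), Pold1 (r = 0.922) and Srebf1 (r = 0.917) were most like Flt3, and Htatip2 (r = 0.973), Arl6ip1 (r = 0.926) and Wwtr1 (r = 0.920) most like Ly6a. Htatip2 averaged 5.03 FPKM in old My-HSCs, 1.93 FPKM in young My-HSCs, 4.28 FPKM in old Ly-HSCs and 0.174 FPKM in young Ly-HSCs, the order of Ly6a. Hnmt (r = 0.904), C1rl (r = 0.886) and Ctsl (r = 0.884) were most like Procr. Ddx39b (r = 0.823), Hyls1 (r = 0.792) and Zfp773 (r = 0.790) were most like Cd48, with the lowest correlations of the 6.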

How the data were processed

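RNA-seq of sorted HSCs was deposited by the authors as FPKM per gene and library, and no count table was used. Per the submitters' processing notes, bcl2fastq 2.17, STAR, DESeq2 and the builds GRCm38 and mm10 were named without a role or order. Annotation, gene filter and the handling of multi-mapped reads were not stated in the sources used here. Per the labels' protocols, libraries were made with a KAPA stranded kit and read as pairs on a HiSeq3000.

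Of 14143 gene identifiers, 14139 matched GENCODE M21 (10983 with the same version), which gave coordinates and exon lengths. The worth of 1 fragment in a library was estimated from its lowest FPKM times exon length. Of values up to 20 such units, 21.1% to 28.0% lay within 0.05 of a whole number, against 10.0% if spread evenly, so depth is approximate and no count model was run.

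Values were analysed as log2(FPKM + 1) for genes at 1 FPKM or more in at least 3 libraries. The means of the 4 groups were estimated by limma 3.58.1 (R 4.3.3), allowing a trend in the prior variance, with 8 residual and 5.11 prior degrees of freedom. The 7 contrasts were old minus young in each fraction, My-HSCs minus Ly-HSCs at each age, both averages over the other factor, and the interaction. Tests were two-sided. The fit was tested on simulated data with known changes.

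The 6 genes, the lists of related genes and the cell type markers were chosen with earlier results of these data known. Named from the lists were the genes called in any contrast and up to 3 with the highest mean FPKM, and for each of the 6 genes the 3 with the highest correlation. Some genes that this rule names are not reported here. Lists were described by counts and medians, with no test of a list. Equal numbers paired the old libraries: deviations from group means of equally numbered old My-HSC and old Ly-HSC libraries correlated at 0.256, 0.233 and 0.210. In the young libraries and between ages the range was -0.039 to 0.048, so no pairing by number was seen there. Such low correlations do not exclude that young libraries of equal number share mice. Alternatives were another pseudocount (0.1), no filter, quantile normalization, median-of-ratios scaling, replicate blocks, 1 weight per group, only the groups of a contrast, leaving out libraries numbered 1 and leaving out each library in turn.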

Additional observations from a re-analysis of the deposited data

How the results depend on the processing

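Across 22 alternatives, of which 1 (leaving out both old libraries numbered 1) was chosen after seeing the data, 815 of 888 values of the 6 genes kept their direction and their side of the threshold, 42 changed sign without being called, 20 lost a call and 11 gained one. Slamf1 and Cd34 between fractions over both ages were called in 21 of 21 alternatives each, with log2 fold changes of 2.35 to 2.96 and of -1.98 to -1.51. The cause of the changes below was not tested, except that leaving out libraries or groups leaves fewer samples.

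Ly6a in Ly-HSCs between ages was not called with no filter, 1 weight per group or only its own groups (2.96 on the log2 scale in each), with median-of-ratios scaling (2.88), quantile normalization (2.52), without the 4 libraries numbered 1 (2.71) or without the 2 old ones (2.49), and it ranged from 2.49 to 3.52 when 1 library was left out. Over both fractions it was not called without the 4 libraries numbered 1 (2.26) or the 2 old ones (2.02), and ranged from 1.95 to 2.49 with 1 left out. Flt3 between fractions was called over both ages with quantile normalization (-2.59) and without the 4 libraries numbered 1 (-2.60), and ranged from -2.70 to -2.03 with 1 left out. In young mice Slamf1 was called without the 4 libraries numbered 1 (2.88). With 1 library left out in young mice, Slamf1 ranged from 2.48 to 3.18, Flt3 from -3.25 to -1.91 and Cd34 from -1.84 to -1.30. In old mice, Slamf1 (2.45) and Cd34 (-2.09) were called with 1 weight per group, in 1 of 22 alternatives each.

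Some differences that were not called changed sign. For Flt3 between ages these were 0.0038 in Ly-HSCs with a pseudocount of 0.1, -0.42 (quantile), -0.50 (without the 4 numbered 1) and -0.19 (without the 2 old ones) in My-HSCs, and -0.41, -0.83 and -0.23 over both fractions under the same 3 settings. For Procr between fractions over both ages they were -0.0068 with median-of-ratios scaling and -0.086 without the 4 libraries numbered 1. For the difference of age effects they were 0.22 for Slamf1 and -0.014 for Flt3 with quantile normalization and 0.026 for Cd48 without the 4 libraries numbered 1. With 1 library left out, Flt3 between ages ranged from -0.95 to 0.39 in Ly-HSCs, -0.19 to 0.67 in My-HSCs and -0.40 to 0.31 over both. Procr ranged from -0.19 to 0.52 between ages in Ly-HSCs, from -0.51 to 0.19 between young fractions and from -0.15 to 0.20 between fractions over both ages. Cd48 between young fractions, at -0.81 over all libraries, ranged from -1.23 to 0.028, the last without young Ly-HSC library 2, and Ly6a from -0.28 to 0.76 between old fractions. For the difference of age effects the ranges were -0.85 to 0.021 for Slamf1, -1.08 to 0.64 for Cd48 and -0.25 to 1.09 for Flt3.

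The number of genes called in limma moved more. Old against young Ly-HSCs had 38, and 24 with median-of-ratios scaling, 14 with quantile normalization, 15 with the replicate block, 9 with 1 weight per group, 0 with only these groups (950 at an unadjusted p under 0.05), 11 without the 4 libraries numbered 1, 3 without the 2 old ones and 7 to 223 with 1 library left out. Old against young My-HSCs had 23, and under the same settings other than the 2 normalizations 9, 71, 36, 4 and 2, with 1 at a pseudocount of 0.1, 56 with no filter and 0 to 36 with 1 library left out. Young My-HSCs against young Ly-HSCs had 13, and 22 at a pseudocount of 0.1, 2 with no filter, 4 with the replicate block, 32 without the 4 libraries numbered 1, and 0 with the replicate block within age, 1 weight per group, only these groups or without the 2 old libraries numbered 1 (1574, 724, 780 and 1436 at an unadjusted p under 0.05), and 0 to 299 with 1 left out. Old My-HSCs against old Ly-HSCs had 3, and 1 at a pseudocount of 0.1, 29 with no filter, 8 with quantile normalization, 1 with the replicate block, 69 with 1 weight per group, 12 with only these groups, 0 with the replicate block within age, without the 4 libraries numbered 1 or without the 2 old ones (462, 541 and 258 at an unadjusted p under 0.05) and 0 to 6 with 1 left out. Over both fractions, old against young had 92, and 39 without the 4 libraries numbered 1, 51 without the 2 old ones and 42 to 197 with 1 left out. Over both ages, My-HSCs against Ly-HSCs had 45, and 69 with no filter, 17 with the replicate block within age, 15 without the 2 old libraries numbered 1 and 14 to 111 with 1 left out. The difference of age effects had 0, and 6 with no filter. With the block on all equal numbers, no call of the 6 genes was lost or gained. That block joins old and young libraries, which come from different mice. It therefore does not account for mice that My-HSC and Ly-HSC libraries of an age may share. At the estimated depths of 6420000 to 19500000 fragments, Cd48 was under the level of 3 fragments in 6 of 12 libraries.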
